A study of Mus musculus with 6 samples.

Results

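Transfer RNAs (tRNAs) carry amino acids to the ribosome, and their anticodon decides which codon they read. Glutamate (Glu) is carried by tRNAs with the anticodons CTC and TTC, written here as in the gene sequence. Ribonucleases can cut a mature tRNA in or near its anticodon loop, which leaves a fragment from the 5′ end and a fragment from the 3′ end that may keep the CCA tail on which the amino acid is loaded. Sperm from the cauda epididymis are known to be rich in such tRNA-derived small RNAs (tsRNAs), above all in 5′ fragments of tRNA-Glu and tRNA-Gly. The epididymal epithelium is known to release tsRNAs in vesicles that sperm take up in transit.

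The tRNA-Glu 5′ fragments were chosen by name, as the rows of the tsRNA table that start with tRNA-Glu- and end with _5_end. There were 2 such rows, tRNA-Glu-CTC_5_end and tRNA-Glu-TTC_5_end, of 124 rows in all. The table lists 6 rows for tRNA-Glu, since each anticodon also has a 3′ end row and a CCA end row, and 52 rows for 5′ ends of any tRNA. Small RNA was sequenced from mature cauda epididymal sperm of male C57BL/6 mice aged 8 weeks. The normal group had 3 samples from mice described only as normal, and the stress group had 3 samples from mice with a stress-induced depressed state. The sources used here do not give the kind and length of the stress, or whether a sample pools animals. The comparison asks whether the share of these fragments differs between sperm of stressed and normal mice. Nothing in the labels ties the replicates to separate animals, and a p-value may therefore reflect no more than technical spread among the 6 samples.

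Values are RPM, reads per 1000000 reads of the tsRNA table, so a value is a share of all tRNA fragments and not an amount per sperm. Fewer cells of a type and less RNA per cell cannot be told apart in such bulk samples. No length correction was applied, because each read is a whole fragment. The tsRNA depth was estimated from a step of which low values are whole multiples, at 1824773 to 2756214 reads per sample. This step accounted for only 25 to 29 of the 65 to 80 low values in a sample, so the depth is uncertain. For normal replicate 3 a step that was larger by a factor of 2 accounted for 22 low values against 26, and would put its depth at 1149648 reads instead of 2299296. Normal replicate 3 also stood apart by its 3067208 miRNA reads, against 1010203 to 1522849 in the other 5 samples. Of 8 miRNAs of male germ cells, 8 were detected in every sample, at 3977 to 5694 counts per 1000000 miRNA reads (CPM) in sum in the normal and 4054 to 5083 CPM in the stress samples. miR-881-3p, at 2900 to 4660 CPM, made up most of that sum. Taken singly, 4 of these 8 (miR-34c-5p, miR-34b-5p, miR-741-3p and miR-743b-3p) were higher in the stress samples without overlap. Of 6 miRNAs of epithelium, 6 were detected in every sample, at 11871 to 17039 CPM in sum in the normal and 28500 to 31548 CPM in the stress samples, without overlap of the sums and of 5 of the 6. Of 5 leukocyte miRNAs 2 were above 0 in every sample. The sum over all 5 was 37.7 to 166.8 CPM in the normal and 210.3 to 453.4 CPM in the stress samples, without overlap of the sums and of 3 of the 5. Most of it was miR-150-5p, at 43.4, 27.0 and 138.2 CPM in the normal and 180.7, 240.3 and 415.8 CPM in the stress replicates. miR-155-5p was at 0 in normal replicates 1 and 2, and miR-142a-5p and miR-223-3p in normal replicate 1. The red blood cell list overlapped between the groups, with miR-144-3p at 0 in 3 samples. These counts stand beside a background in which 43.9% of the 419 miRNAs that reached 1 CPM in 3 or more samples were higher in the stress samples without overlap (counted after the values were seen). The part of these other cells in the values below was not tested.

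tRNA-Glu-CTC_5_end was the most abundant row of the table in all 6 samples. It made up 55.8%, 60.4% and 55.8% of the tRNA fragments in normal replicates 1, 2 and 3, and 57.3%, 54.4% and 57.6% in stress replicates 1, 2 and 3. The highest value, in normal replicate 2, and the lowest, in stress replicate 2, were the only ones more than 2 percentage points from the median of 56.6%, and the groups overlapped. tRNA-Glu-TTC_5_end came next by its mean after tRNA-Gly-GCC_5_end. It made up 7.63%, 7.03% and 7.02% in normal sperm (replicates 1 to 3) and 7.63%, 7.08% and 8.11% in stress sperm. Stress replicate 3 was the highest, and the other 5 samples of this row lay between 7.02% and 7.63%.

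**Figure D1:**
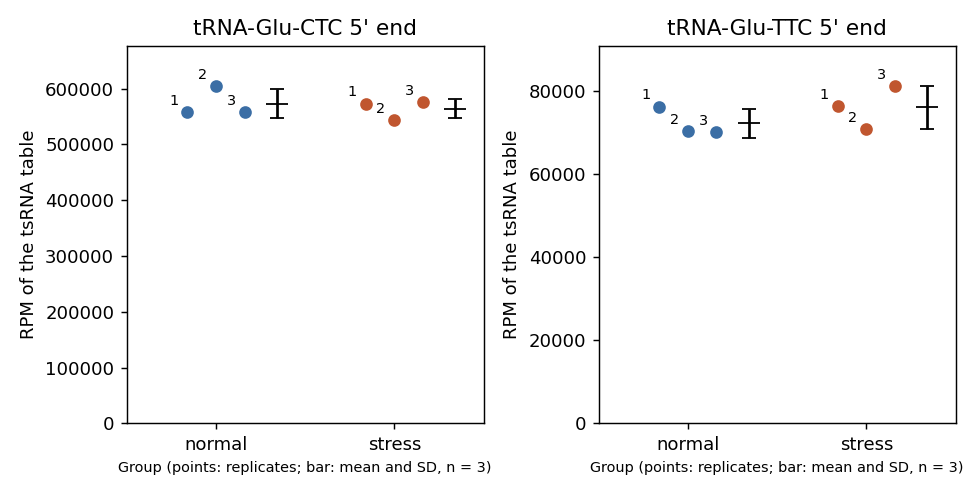
Level of each tRNA-Glu 5′ fragment (vertical axis, RPM of the tsRNA table, from 0) in normal and stress sperm; points are replicates with their number, and the bar gives the mean and SD (n = 3). The groups overlap for each anticodon, with means of 573379 and 564506 RPM for CTC and 72250 and 76074 RPM for TTC.

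Neither fragment passed the test for a difference between stress and normal sperm. tRNA-Glu-CTC_5_end averaged 573379 ± 26668 RPM (SD, n = 3) in normal and 564506 ± 17471 RPM in stress sperm, a log2 fold change of −0.022 ± 0.047 SE with a 95% interval of −0.12 to 0.071 (limma, adjusted p = 0.84 by Benjamini-Hochberg over 87 rows). tRNA-Glu-TTC_5_end went from 72250 ± 3475 RPM to 76074 ± 5172 RPM, a log2 fold change of 0.073 ± 0.11 SE with a 95% interval of −0.14 to 0.29 (limma, adjusted p = 0.81). Across the table limma called 0 of the 87 rows tested (0%), with 8 at an unadjusted p under 0.05, and neither tRNA-Glu 5′ fragment was among the 8. The width of these intervals depends on how the spread is modelled. The fit lets the spread depend on abundance, and the replicates of both rows also lay close together. In a limma fit without that trend, the spread of each row is drawn toward a value common to all rows. The SE of tRNA-Glu-CTC_5_end was then 0.31. The 95% intervals of that fit were −0.76 to 0.71 for tRNA-Glu-CTC_5_end and −0.67 to 0.81 for tRNA-Glu-TTC_5_end. The sign of the CTC value turned without normal replicate 2 (0.016) or without stress replicate 2 (0.0040), and that of the TTC value when samples were centred on their median row (−0.00083).

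The 2 fragments together took 63.4%, 67.4% and 62.8% of the table in the normal and 65.0%, 61.5% and 65.7% in the stress replicates. The group means were 64.6% ± 2.52 (SD, n = 3) and 64.1% ± 2.23, and they differed by less than the spread within a group (exact permutation p = 0.9, adjusted p = 0.9 over 7 comparisons of shares and ratios; 0.1 is the smallest p that 3 samples against 3 allow). Without normal replicate 2 or stress replicate 2 the difference was 0.94 or 0.77 percentage points upward in place of −0.50. Measured against the miRNA, piRNA and tsRNA reads together, an estimate, the tRNA-Glu 5′ fragments held 40.4%, 44.7% and 26.5% in the normal and 43.9%, 32.8% and 47.2% in the stress replicates. Normal replicate 3 was the lowest on that scale, at 26.5%, or 16.8% with the larger read step. This scale turned the sign as well, to a difference of 4.10 percentage points, or 7.33 with the larger read step (exact permutation p = 0.6 for each, n = 3 per group).

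**Figure D2:**
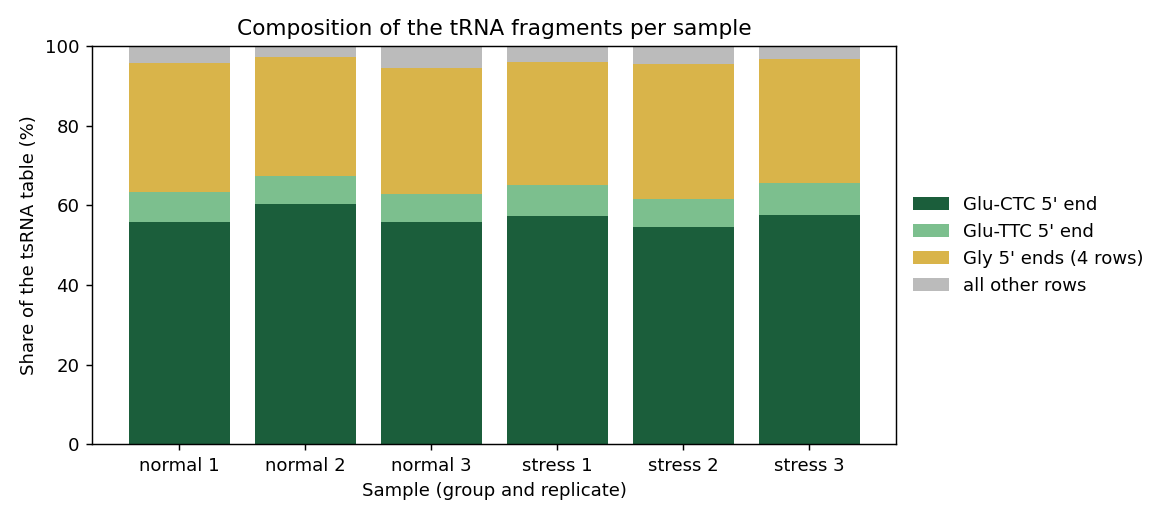
Share of the tsRNA table (vertical axis, %) in each of the 6 samples, stacked by tRNA-Glu-CTC 5′, tRNA-Glu-TTC 5′, the 4 tRNA-Gly 5′ rows and all other rows. In every sample the tRNA-Glu 5′ fragments are the largest block, at 61.5% to 67.4%, and with the tRNA-Gly 5′ fragments they reach 94.5% to 97.2%.

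Within the tRNA-Glu 5′ fragments, CTC took 88.0%, 89.6% and 88.8% in normal replicates 1, 2 and 3. It took 88.3%, 88.5% and 87.7% in stress replicates 1, 2 and 3, and TTC took the remaining 10.4% to 12.3%. The CTC to TTC ratio was 7.32, 8.60 and 7.95 in the normal and 7.51, 7.69 and 7.10 in the stress replicates. Normal replicate 2 had the highest and stress replicate 3 the lowest ratio, and normal replicate 1 lay below stress replicates 1 and 2. The mean ratio was 7.95 ± 0.639 (SD, n = 3) in normal and 7.43 ± 0.304 in stress sperm. The difference of the log2 ratios, −0.095, did not stand out from the spread between samples (exact permutation p = 0.3, adjusted p = 0.42 over the 7 comparisons). It was −0.038 without normal replicate 2 (exact permutation p = 0.6) and −0.062 without stress replicate 3 (exact permutation p = 0.6). Without normal replicate 1 it was −0.15 (exact permutation p = 0.1, the smallest that 3 samples against 2 allow). This ratio does not depend on how the table was scaled.

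The RefSeq annotation of GRCm38.p6 names 12 genes of tRNA-Glu with the anticodon CTC and 8 with TTC, among 430 tRNA genes. Divided by these numbers, the 5′ level averaged 47412 RPM per CTC gene and 9270 RPM per TTC gene. The number of genes thus differed far less between the anticodons than the fragments did. It is not known here which of the genes gave the reads. Reads that fit more than 1 tRNA appear to have been divided, as many low values are fractions of a read, so the split between CTC and TTC is uncertain as far as their 5′ parts share sequence.

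The ratio was not the same at the other end of these tRNAs. tRNA-Glu-CTC_3_end was listed at 7.61, 7.59 and 18.8 RPM in the normal and 45.6, 67.9 and 27.0 RPM in the stress replicates, and tRNA-Glu-TTC_3_end at 35.4, 21.5 and 32.5 RPM and at 59.7, 53.7 and 33.2 RPM. Among the rows named for the CCA end, tRNA-Glu-CTC_CCA_end was at 31.5, 33.3 and 47.0 RPM in the normal and 111.9, 65.7 and 66.3 RPM in the stress replicates. How the 3′ end and CCA end rows were told apart is not given in the sources used here. tRNA-Glu-TTC_CCA_end was at 120.1, 197.9 and 309.2 RPM and at 342.3, 377.3 and 201.4 RPM. CTC was therefore the scarcer anticodon among CCA ends in all 6 samples, with a CTC to TTC ratio of 0.152 to 0.329, and among 3′ ends in 5 of 6, with a ratio of 0.215 to 1.26. The CTC to TTC ratio of the 5′ fragments exceeded that of the CCA ends 34.3-fold in the geometric mean, and that of the 3′ ends 13.5-fold, each in 6 of 6 samples (exact sign-flip permutation p = 0.031 for each, the smallest that 6 samples allow, adjusted over the 2 comparisons to the same value; chosen after the values were seen). With 6 of 6 samples on the same side this p-value is fixed, so it adds nothing to that count.

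**Figure D3:**
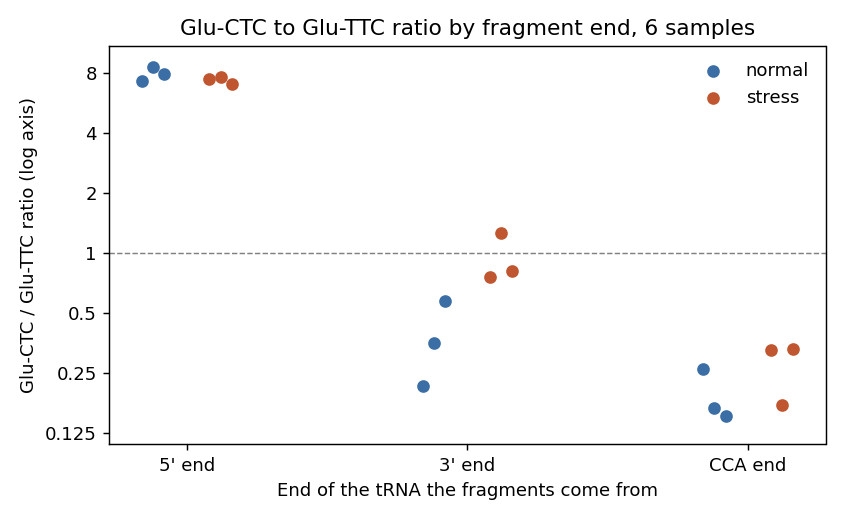
Ratio of tRNA-Glu-CTC to tRNA-Glu-TTC (vertical axis, log scale; dashed line at 1) for 5′, 3′ and CCA end rows; each point is a sample, coloured by group. All 5′ ratios lie at 7.10 or above, all CCA ratios at 0.329 or below, and the 3′ ratios of the stress samples lie above those of the normal samples.

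The 3′ and CCA ends were a trace beside the 5′ fragments. They made up 0.00701%, 0.00676% and 0.0118% of all tRNA-Glu-CTC fragments in normal sperm and 0.0275%, 0.0245% and 0.0162% in stress sperm, without overlap. The 5′ share of tRNA-Glu-CTC thus differed by −0.0142 percentage points between stress and normal sperm (exact permutation p = 0.1, the smallest possible with n = 3 per group, adjusted p = 0.35 over the 7 comparisons). For tRNA-Glu-TTC the other ends made up 0.203%, 0.311% and 0.484% in the normal and 0.524%, 0.605% and 0.288% in the stress replicates, with overlap (exact permutation p = 0.3, adjusted p = 0.42, n = 3 per group). The 3′ CTC to TTC ratio was 0.382 ± 0.183 (SD, n = 3) in normal and 0.947 ± 0.276 in stress sperm, without overlap (exact permutation p = 0.1, adjusted p = 0.35), and the CCA ratio was 0.194 ± 0.0595 and 0.277 ± 0.0889, with overlap (exact permutation p = 0.2, adjusted p = 0.42).

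Of the 4 tRNA-Glu rows outside the 5′ fragments, 0 passed in limma and 4 had positive log2 fold changes, beside 46 of all 87 rows tested. Their median was 0.88 beside 0.073 over all 87 rows tested. That median over all rows tested was itself −0.12 without normal replicate 2 and 0.36 without normal replicate 3, and 0.22 or 0.43 on the scales of the 3 tables. tRNA-Glu-CTC_3_end stood at 1.98 ± 0.74 SE (unadjusted p = 0.0075, limma adjusted p = 0.26), tRNA-Glu-CTC_CCA_end at 1.08 ± 0.72 (adjusted p = 0.54), tRNA-Glu-TTC_3_end at 0.68 ± 0.73 (adjusted p = 0.72) and tRNA-Glu-TTC_CCA_end at 0.60 ± 0.62 (adjusted p = 0.72). tRNA-Glu-TTC_CCA_end stood at 0.26 without normal replicate 1 and at 0.94 without normal replicate 3, and passed in neither fit. The groups did not overlap for 2 of these 4 rows, those of CTC, with the stress samples above; 8.05% of the rows tested did not overlap, and in 6.9% the stress samples were above. The call of tRNA-Glu-CTC_3_end depended on normal replicate 3, the sample with the highest normal value. Without it the row stood at 2.38 and passed (limma adjusted p = 0.0083), while its adjusted p lay between 0.21 and 0.79 when any other sample was left out. It also passed when scaled to the reads of the 3 tables together (2.09, limma adjusted p = 0.031). The row rested on an estimated 15, 18 and 43 reads in the normal replicates (22 in normal replicate 3 with the larger step) and 109, 124 and 74 in the stress replicates. The summed levels of the epithelial and leukocyte miRNAs given above were also higher in the stress samples without overlap. So were 43.9% of the 419 miRNAs of the background given above, and 4 of the 8 germ cell miRNAs taken singly. The part of other cells in the difference of tRNA-Glu-CTC_3_end was not tested.

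Positive values were common among 3′ ends of all tRNAs. Of 24 tested 3′ end rows 21 had a positive log2 fold change (median 0.57), against 19 of 44 tested 5′ end rows (median −0.14) and 6 of 19 CCA end rows (median −0.17), and limma called 0 in each list. Over all 87 rows tested 46 were positive. The rows come from the same 6 samples and share a fixed total, so their signs are not separate observations. Centred on the median row, the medians of the 3′, 5′ and CCA end rows were 0.49, −0.21 and −0.24. The comparison list of 13 other tRNA 5′ fragments known from sperm or serum had 0 rows past the threshold, 9 positive and 4 negative values and a median of 0.22.

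**Figure D4:**
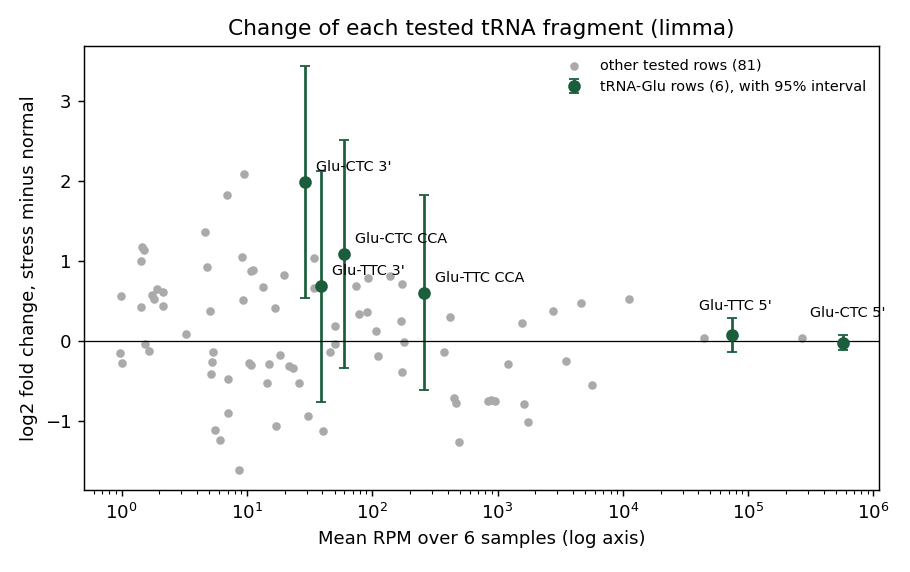
log2 fold change (stress minus normal, vertical axis) against the mean RPM over 6 samples (horizontal axis, log scale) for the 87 tested rows; the 6 tRNA-Glu rows carry 95% intervals. The 5′ fragments lie near 0 at the right with narrow intervals (−0.022 and 0.073), and the 4 rarer tRNA-Glu rows lie above 0, from 0.60 to 1.98.

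tRNA-Gly 5′ fragments, the class closest in abundance, held 29.7% to 33.9% of the table. tRNA-Gly-GCC_5_end averaged 270763 RPM and tRNA-Gly-CCC_5_end 44805 RPM, while tRNA-Gly-TCC_5_end averaged 170.1 RPM and tRNA-Gly-ACC_5_end stood between 27.6 and 164.3 RPM. The ratio of all tRNA-Glu to all tRNA-Gly 5′ fragments was 1.97, 2.27 and 1.98 in the normal and 2.10, 1.82 and 2.12 in the stress replicates. Normal replicate 2 was the highest and stress replicate 2 the lowest, as for tRNA-Glu-CTC_5_end itself, and the groups did not differ beyond their spread (difference of log2 ratios −0.044, exact permutation p = 0.6, adjusted p = 0.7, n = 3 per group). Without normal replicate 2 or stress replicate 2 that difference turned to 0.022 or 0.027. The log2 fold changes of the tRNA-Gly 5′ rows were 0.032 for GCC, 0.039 for CCC, 0.24 for TCC and 0.79 for ACC, and 0 of 4 passed in limma. Without normal replicate 2 tRNA-Gly-TCC_5_end stood at −0.12 and tRNA-Gly-ACC_5_end at 0.24, and without normal replicate 3 tRNA-Gly-ACC_5_end stood at 1.51. Without normal replicate 1 tRNA-Gly-TCC_5_end stood at 0.54 and without stress replicate 1 at 0.10. Those of GCC and CCC turned to −0.042 and −0.035 when centred on the median row.

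Over the 6 samples the coefficient of variation (CV, the SD as a percentage of the mean) was 3.65% for tRNA-Glu-CTC_5_end, the lowest of the 29 rows with a mean of at least 100 RPM, and 6.02% for tRNA-Glu-TTC_5_end, the fourth lowest. The median of these rows was 35.3% and the highest 121.5%. The next lowest was tRNA-Gly-CCC_5_end at 3.95%, followed by tRNA-Gly-GCC_5_end at 4.54%. The 4 rows with the lowest CV were thus also the 4 most abundant rows. A fixed total limits the CV of a row that holds 56.9% of it on average. The rank of tRNA-Glu-CTC_5_end therefore does not show that the fragment itself is steadier than others. The CTC to TTC ratio had a CV of 6.90%. Among 17 pairs of 5′ rows that share an amino acid, taken from rows with a mean of at least 100 RPM after the values were seen, this was the seventh lowest. The lowest CVs were 0.78% for a pair of tRNA-Ser rows and 0.96% for a pair of tRNA-Pro rows. tRNA-Gly-GCC_5_end to tRNA-Gly-CCC_5_end, a ratio of 5.97 to 6.16, had a CV of 1.14%, and tRNA-Val-CAC_5_end to tRNA-Val-AAC_5_end one of 3.32%. tRNA-Gln-CTG_5_end to tRNA-Gln-TTG_5_end had 15.1%, and tRNA-Lys-CTT_5_end to tRNA-Lys-TTT_5_end 24.2%. Some of the 17 pairs share a row. The part that reads divided between rows have in these CVs was not tested.

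The 2 tRNA-Glu 5′ fragments had a Pearson r of 0.060 (log2 values over 6 samples, a description in which both values share library and total). Among 26 rows of other tRNAs with a mean of at least 100 RPM, the highest r with tRNA-Glu-CTC_5_end was that of tRNA-His-GTG_5_end (r = 0.016). tRNA-Gln-CTG_5_end (r = −0.10) and tRNA-Gln-TTG_5_end (r = −0.16) followed. The lowest r with tRNA-Glu-CTC_5_end was that of tRNA-Gly-GCC_5_end (r = −0.95). All rows share a fixed sum, of which tRNA-Glu-CTC_5_end took 54.4% to 60.4%. The scaling alone therefore pushes its r with other rows downward, that with tRNA-Glu-TTC_5_end included. Neither the r of 0.060 nor the lack of a like row is a result about the fragments. The rows most like tRNA-Glu-TTC_5_end were tRNA-Gly-TCC_5_end (r = 0.54), tRNA-Gln-TTG_5_end (r = 0.41) and tRNA-Gln-CTG_5_end (r = 0.37), over the same 6 samples.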

How the data were processed

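Sperm RNA was isolated with Trizol and sequenced from libraries made with an Illumina TruSeq RNA kit, per the labels' protocols. Bowtie is the tool named in the submitters' processing notes. Not given in the sources used here are its version, the genome build, the tRNA reference, the definition of 5′, 3′ and CCA ends, and how reads were counted. The deposited tsRNA and piRNA tables hold RPM, scaled by the authors to 1000000 over each table. The deposited miRNA table holds expected counts, used here for depth and for marker levels only. Rows that reached 1 RPM in 3 or more samples (87 of 124) were tested on log2(RPM + 1) with limma 3.58.1 (trend) in R 4.3.3, stress minus normal, with a threshold of 0.05 after Benjamini-Hochberg adjustment. Fold changes on this scale understate the change of rows near 1 RPM. The fit was tested on simulated data in which rows varied independently and were not scaled to a fixed total. That simulation therefore does not represent a row as large as tRNA-Glu-CTC_5_end in a table with a fixed total. Shares and ratios were compared with two-sided exact permutation tests in Python 3.11.15. Reads of the piRNA table were recovered from its smallest value per sample (100% of values whole within 0.001). Alternatives were other pseudocounts, filters, scalings and spreads, a replicate block and leaving out samples. The text names the 2 members, the other tRNA-Glu rows, the tRNA-Gly 5′ rows, the 5 most abundant rows where a result needs them, and the 3 rows most like each member by Pearson r among rows of at least 100 RPM on average. Members and lists were chosen with earlier results of these data known.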

Additional observations from a re-analysis of the deposited data

How the results depend on the processing

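Neither tRNA-Glu 5′ fragment was called under any alternative run, and their log2 fold changes lay between −0.096 and 0.47. The sign of tRNA-Glu-CTC_5_end turned from −0.022 to 0.16 when scaled to the reads of the 3 tables with estimated depth, to 0.38 with the larger read step of normal replicate 3 (added after seeing the data), and lay between −0.041 and 0.016 when a sample was left out. tRNA-Glu-TTC_5_end turned to −0.00083 when centred on the median row. The number of rows called by limma was 0, but 1 on either scale of the 3 tables (tRNA-Glu-CTC_3_end), and 0 to 2 when a sample was left out; the 2, without normal replicate 3, were tRNA-Glu-CTC_3_end and tRNA-Val-CAC_5_end. With the larger read step tRNA-Glu-CTC_3_end stood at 2.28 (limma adjusted p = 0.011). The tRNA-Glu 5′ share differed by 4.10 percentage points on the scale of the 3 tables and by 7.33 with the larger step, and by −1.38 to 0.94 when a sample was left out. With a sample left out, the stress minus normal difference of the log2 ratio of tRNA-Glu to tRNA-Gly lay between −0.085 and 0.027, and that of CTC to TTC between −0.15 and −0.038. tRNA-Gly-GCC_5_end turned to −0.042 and tRNA-Gly-CCC_5_end to −0.035 with centring, and with a sample left out tRNA-Gly-GCC_5_end lay between −0.012 and 0.056 and tRNA-Gly-TCC_5_end between −0.12 and 0.54. With 5 samples the ratio by end could not pass (exact sign-flip permutation p = 0.062), at log2 differences of 3.48 to 3.98 for 3′ and 4.98 to 5.24 for CCA ends. The same-numbered samples had correlations of 0.19, −0.36 and −0.23. With 3 samples per group these values show no pairing by number but cannot exclude it. With the replicate as a block limma called 0 rows, and 3 had an unadjusted p under 0.05. In that fit the 2 fragments stood at −0.022 (limma adjusted p = 0.91) and 0.073 (limma adjusted p = 0.87). Pairing by number leaves a mean difference as it is (−0.50 percentage points for the tRNA-Glu 5′ share, −0.095 for the log2 CTC to TTC ratio) and changes only the test, with exact sign-flip permutation p = 1.0 and 0.5, where 3 pairs allow no less than 0.25. Depth limits the 3′ end rows, which rest on an estimated 15 to 124 reads for tRNA-Glu-CTC_3_end; intervals from it would cover counting error only.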
